A study of Mus musculus with 3 samples.

Results

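The imprinted growth regulators examined here are 8 mouse genes, Phlda2, Cdkn1c, Grb10, Dlk1, Mest, Peg3, Plagl1 and Ndn, taken by name from the RefSeq identifiers of a table of lung RNA levels. All 8 had a transcript, 15 in all, among 10761 named genes with 16383 transcripts. The libraries came from whole mouse lung on a mixed C57BL/6J background: 2 double-knockout libraries (DKO 1 and DKO 2), labelled as knockout of Lin28a and Lin28b, and 1 wild-type library (WT). The DKO rests on exon 2, flanked by loxP sites, being removed by NKX2.1creERT, a tamoxifen-activated Cre recombinase described as specific to epithelium, whereas RNA came from all cells of the lung. Age, sex, whether the WT animal received tamoxifen and whether the DKO libraries came from different animals are not given in the labels, so the spread between these libraries may be technical. Levels are RPKM, reads scaled to transcript length and to library size. The unit is meant for comparing genes, but levels of genes with overlapping transcripts could not be compared with others, as described below.

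An imprinted gene is transcribed mainly from the allele inherited from 1 parent, under the control of an epigenetic mark that differs between the parental alleles and is set in the germ line. Many imprinted genes act on fetal and placental growth. As a rule of thumb, several maternally expressed ones restrain growth and several paternally expressed ones promote it. Of the genes here, Phlda2, Cdkn1c and Grb10 are expressed from the maternal allele in most tissues, whereas Dlk1, Mest, Peg3, Plagl1 and Ndn are expressed from the paternal allele. Lin28a and Lin28b are RNA-binding proteins of early development that block maturation of the let-7 microRNAs. RPKM does not separate the parental alleles, so imprinting itself was not measured. In whole lung, fewer cells of a type and less RNA per cell cannot be told apart.

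The members fell into a measured set and a set listed at or near 0. Ndn and Plagl1 had the highest listed levels in every library, Phlda2 was above 0 only in the DKO libraries, and Peg3 was low in all. Cdkn1c, Grb10, Dlk1 and Mest had less than 0.13 RPKM in every library. By limma, a linear model fitted over the 2066 transcripts that averaged 1 RPKM or more, 0 of the 3 members tested passed at a Benjamini-Hochberg adjusted p under 0.05, where 0.0968% of all tested transcripts did. Of these members 1, Phlda2, had an unadjusted p under 0.05, as did 66 tested transcripts, or 3.19%.

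**Figure D1:**
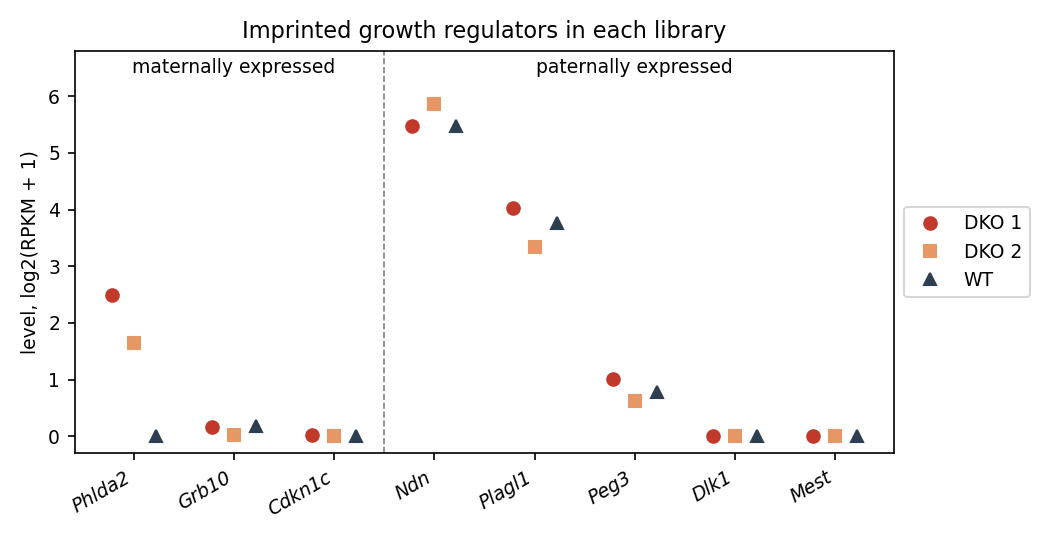
Level of each gene as log2(RPKM + 1), summed over its transcripts, in DKO 1 (circles), DKO 2 (squares) and WT (triangles), with maternally expressed genes left of the dashed line. Each point is 1 library. Phlda2 is at 0 in WT and above it in both DKO libraries, Ndn and Plagl1 are high in all 3, and Dlk1 and Mest are at 0 throughout.

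Lin28b had 0.187 RPKM in DKO 1, 0.590 in DKO 2 and 0.449 in WT, so the library labelled DKO 2 was not below WT in this gene. A level over the whole transcript does not show whether exon 2 was lost. Lin28a was not analysed here. The 4 Y-linked genes Ddx3y, Eif2s3y, Kdm5d and Uty summed to 22.3 RPKM in DKO 1, 8.11 in DKO 2 and 0 in WT, so sex and genotype cannot be told apart. The libraries also differed in marker genes of other cells. Summed RPKM of 5 liver genes was 11.4 in DKO 1, 183 in DKO 2 and 7.55 in WT, that of 7 immune genes was 350.2, 192 and 32.0, and that of 7 epithelial genes was 15.2, 28.1 and 37.2, each in the order DKO 1, DKO 2, WT. Erythroid markers summed to 28712, 102767 and 20200 RPKM and heart markers to 13.7, 81.8 and 21.1 RPKM in that order, both highest in DKO 2. Among the defining markers, Ptprc (immune) was listed at 0 throughout and Alb (liver) at 0 in WT. Whether transcripts of Ptprc overlap others is not given here, so its 0 was not read as absence of immune cells. Nkx2-1, which defines lung epithelium, was also listed at 0 throughout, and its transcripts have at most 21.4% of their bases to themselves, so the lung label was not checked by it. Some general markers of epithelium and mesenchyme, found in most organs, were present. Epithelial Epcam was at 6.75, 10.6 and 17.4 RPKM, and mesenchymal Col1a2 at 30.5, 22.6 and 21.3 RPKM, in that order. Others, such as epithelial Foxa2 and mesenchymal Pdgfra and Tbx4, were at or near 0 throughout. The mesenchymal markers summed to 240, 172 and 195 RPKM in DKO 1, DKO 2 and WT, so unlike Col1a2 their sum was below WT in DKO 2. The part of sex and of these cells in the members' values was not tested.

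Whether a member was measured went with the layout of its transcripts. Phlda2, Peg3, Plagl1 and Ndn each have 1 transcript in the table, and no other transcript of the table overlaps its exon bases. The other 4 genes have 11 transcripts that share bases with other transcripts of the table, and 9 of these 11 showed 0 throughout. In all genes together, 96.8% of 3063 transcripts with no base of their own were at 0 in all 3 libraries, against 80.9% of 4667 with some and 49.9% of 8347 with all bases their own. Gapdh, a glycolysis gene active in nearly all cells and with overlapping transcripts, had 0.115 RPKM in DKO 1, 0.185 in DKO 2 and 0.0144 in WT. A 0 of an overlapped member was therefore not read as absence of its RNA.

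**Figure D2:**
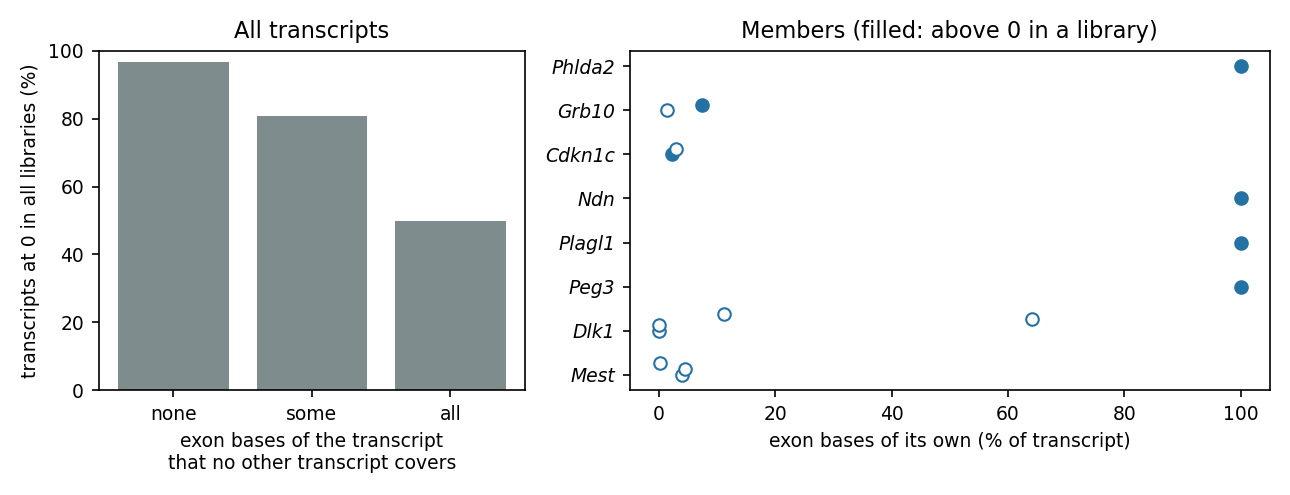
Left, share of transcripts listed at 0 in all 3 libraries (%), by whether none, some or all of their exon bases are free of other transcripts in the table. Right, each member transcript by the share of its exon bases that are its own (%), filled where any library was above 0. Phlda2, Ndn, Plagl1 and Peg3 sit at 100% and are filled, whereas 9 of the 11 other transcripts are open.

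Among the maternally expressed members, Phlda2 encodes a small pleckstrin homology-domain protein known as a brake on placental growth. Its transcript NM_009434 (gene span chromosome 7, 143501545 to 143503145 on GRCm38, minus strand) had 4.64 RPKM in DKO 1 and 2.14 in DKO 2, against a listing at 0 in WT. These values stand for about 108 and 55 reads in the DKO libraries, and 1 read would have been 0.0271 RPKM in WT. Both DKO libraries were thus above WT, with a mean of 3.39 ± 1.77 RPKM (SD, n = 2), and DKO 1 was the higher. A 2-fold rule asked that DKO 1 and DKO 2 each differ from WT by 2-fold or more of RPKM + 1, to the same side, and lie nearer to each other than to WT. Phlda2 was the 1 member past it, upward, where 4.7% of all tested transcripts were past it, 3.19% upward and 1.5% downward. These are 66 and 31 transcripts, against 71 and 67 when RPKM was rescaled to TPM. The 2-fold call ended (0 members) with a pseudocount of 5, and with a filter at 5 RPKM, which left Phlda2 out. In limma its unadjusted p was 0.0178, or 0.0728 in the fit without a filter, and its adjusted p was 0.999. Over 10 alternatives the adjusted p ran from 0.424 to 0.999. No fold is given against 0, and the size of its log2 difference depends on the pseudocount.

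Phlda2, like any gene at 0 in WT, passed the filter on low values through the DKO libraries alone. A listing at 0 in WT with values above 0 in both DKO libraries applied to 19 tested transcripts, or 0.92%, Phlda2 and the Y-linked Ddx3y and Eif2s3y among them. The tested genes whose pair of differences from WT lay nearest to that of Phlda2 over the 3 libraries were Bcl7c (distance 0.20 on the log2 scale), Ddx3y (0.29) and Mif (0.42). Bcl7c had 36.2 RPKM in DKO 1, 18.6 in DKO 2 and 6.07 in WT. Ddx3y, an RNA helicase gene of the Y chromosome, had 5.49, 2.64 and 0 RPKM in the same order. Mif, a cytokine gene whose pseudogenes may share its reads, had 1984, 964 and 397 RPKM. The order of DKO 1 over DKO 2 over WT was thus shared by Phlda2 and the Y-linked genes, but it was not particular to them. Cdk1 and the mesenchymal markers Fgf10 and Col1a2 had it too, whereas the mesenchymal markers Vim and Lum did not. Of all tested transcripts 32.1% were above WT in both DKO libraries, and the share with this order was not counted. The summed liver markers were highest in DKO 2. All 4 immune markers tested were above WT in both DKO libraries. Tyrobp (219, 52.3 and 24.9 RPKM), Cd52 (39.1, 27.1 and 2.82) and C1qb (19.4, 4.90 and 0.812) had the order of Phlda2. The summed immune markers had it too. S100a8 did not, with 72.2, 108 and 3.04 RPKM in DKO 1, DKO 2 and WT. The part of sex and immune cells in the Phlda2 values was not tested.

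The start region of Phlda2 is shown because this member had the largest log2 difference from WT among the 3 tested. The region shown spans 250 bases before to 50 after an annotated start that lies inside the gene span (RefSeq, GRCm38.p6, chr7:143502475-143502774, minus strand). Capitals mark the letters TATAAA, which begin 30 bases before that start.
Phlda2 promoter: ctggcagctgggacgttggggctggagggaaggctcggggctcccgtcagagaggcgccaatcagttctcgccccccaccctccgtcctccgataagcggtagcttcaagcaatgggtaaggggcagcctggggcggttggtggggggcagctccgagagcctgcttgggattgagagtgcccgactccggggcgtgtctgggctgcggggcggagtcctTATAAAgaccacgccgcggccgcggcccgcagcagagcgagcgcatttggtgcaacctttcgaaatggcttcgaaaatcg
The window holds 26 CpG dinucleotides, the sites that carry DNA methylation, against a median of 7 over 32851 mouse promoter windows of 300 bases. As many or more are found in 16.9% of those windows. TATAAA, searched on both strands, occurs in 13.6% of them.

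Phlda2 lies in the imprinted domain of distal chromosome 7, beside Cdkn1c and within 4 Mb of 11 other imprinted genes with a transcript in the table. Slc22a18, a transporter gene 2 kb away, and Nap1l4, a histone chaperone gene 10 kb away, were listed at 0 in every library. Each of their transcripts overlaps another and has at most 8.89% of its bases to itself. Tssc4 and Osbpl5, whose exon bases are all their own, were also listed at 0 throughout. Ascl2, a transcription factor of the placenta, had 0.263 RPKM in DKO 1 and 0 in DKO 2 and WT. Kcnq1, a potassium channel gene, had 0 in DKO 1, 0.241 in DKO 2 and 0 in WT. Dhcr7, an enzyme of cholesterol synthesis, was near level at 1.84, 2.02 and 2.03 RPKM in DKO 1, DKO 2 and WT. Ascl2, Dhcr7, Kcnq1, Osbpl5, Th and Tssc4, the neighbours with a transcript whose exon bases are all its own, did not have Phlda2's pattern of values above 0 in both DKO libraries with a 0 in WT, and the others could not be read.

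**Figure D3:**
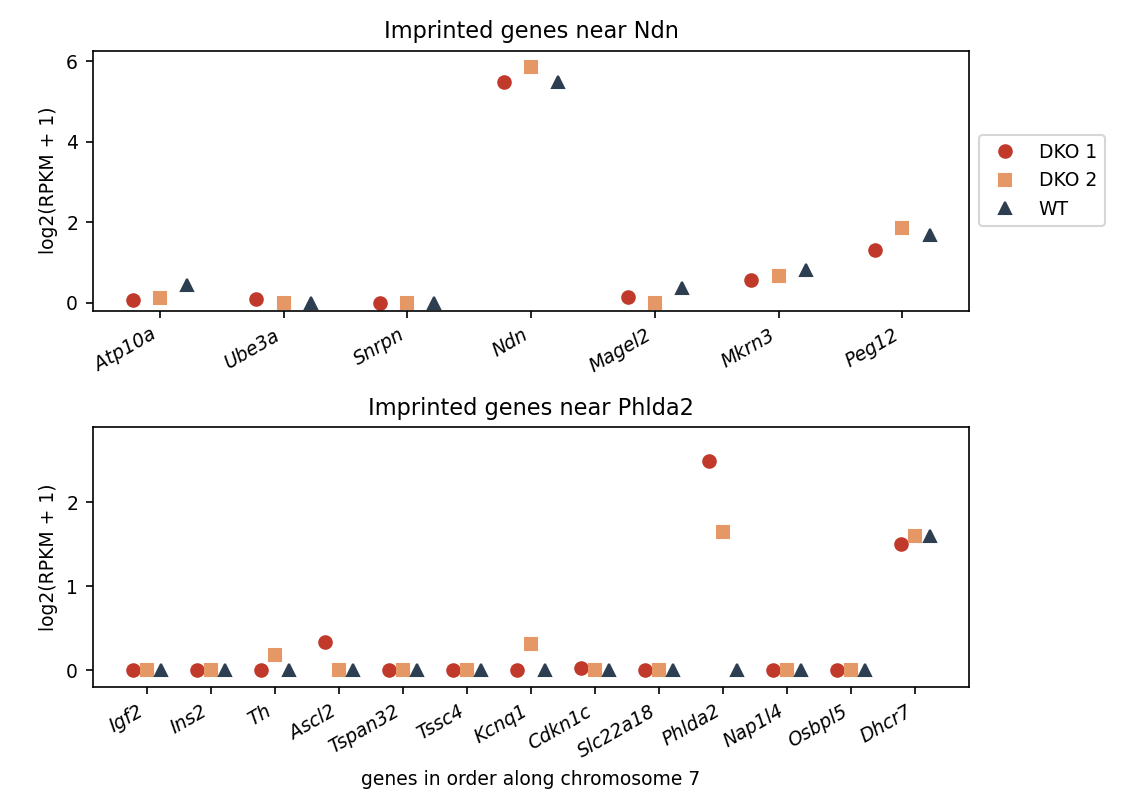
Level as log2(RPKM + 1) of the listed imprinted genes within 4 Mb of Ndn (top) and Phlda2 (bottom), in their order along chromosome 7, in DKO 1 (circles), DKO 2 (squares) and WT (triangles). Each point is 1 library. Ndn stands above its neighbours in every library, and Phlda2 is above 0 in both DKO libraries while most genes around it are at 0.

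Cdkn1c encodes p57, an inhibitor of cyclin-dependent kinases that stops the cell cycle. Its transcript NM_001161624 had 0.0168 RPKM in DKO 1, about 1 read, and was listed at 0 in DKO 2 and WT, and NM_009876 was at 0 in every library. These transcripts have 2.17% and 2.84% of their bases to themselves, so the level of Cdkn1c could not be read. Cdkn1b and Cdkn2d, which encode the other cyclin-dependent kinase inhibitors p27 and p19, were measured. Cdkn1b had 2.24 RPKM in DKO 1, 1.45 in DKO 2 and 1.52 in WT. Cdkn2d had 13.4, 5.94 and 12.8 RPKM in the same order. Each thus had DKO libraries on either side of WT. Both were chosen for naming after their values were seen, as the only CDK inhibitor genes tested.

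Grb10 encodes an adaptor that binds the insulin and IGF1 receptors and dampens their signal. It is the exception among the members in that neurons express the paternal copy. Its transcript NM_010345 (gene span chromosome 11, 11930499 to 12037428, minus strand) had 0.115 RPKM in DKO 1 and 0.0172 in DKO 2, against 0.129 in WT, or about 18, 3 and 32 reads. DKO 1 lay close to WT, with a ratio of 0.893 (95% exact binomial interval 0.472 to 1.64), and DKO 2 lay below both, with a ratio to WT of 0.133 (0.0261 to 0.427). The intervals cover counting error only, since amplified reads are not independent molecules. On the log2(RPKM + 1) scale the difference was −0.08 (SE 0.09, limma adjusted p = 0.922, fitted over all transcripts above 0), so Grb10 did not pass. Only 375 bases of this transcript, 7.41%, are free of other transcripts of the table, and the second Grb10 transcript was listed at 0 throughout.

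Among the members that could be read, the paternally expressed Ndn and Plagl1 gave the highest values. Ndn encodes necdin, a protein of the MAGE family that binds E2F factors and p53 and restrains proliferation, chiefly known from neurons. Its transcript NM_010882 (gene span chromosome 7, 62348277 to 62349928, plus strand) had 43.4 RPKM in DKO 1 and 56.9 in DKO 2, against 43.6 in WT. DKO 1 and WT were close to equal and DKO 2 was the highest. Ndn stood at percentile 93.2, 92.2 and 92.6 of the transcripts above 0 in DKO 1, DKO 2 and WT. The ratio to WT was 0.995 in DKO 1 (95% exact binomial interval 0.943 to 1.05) and 1.30 in DKO 2 (1.24 to 1.37). Over both DKO libraries the mean was 50.1 ± 9.54 RPKM (SD, n = 2), and WT lay within that spread. The log2 difference was 0.18 (SE 0.78, limma adjusted p = 0.999), and it changed sign to −0.037 when RPKM was rescaled to TPM. DKO 2 was also the library with the highest summed liver, erythroid and heart markers, and their part in the Ndn value was not tested.

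The start region of Ndn is printed as that of the member with the highest listed level, to be read beside that of Phlda2 (RefSeq, GRCm38.p6, chr7:62348027-62348326, plus strand). Capitals mark GCATGCGC, a core of the binding motif of the transcription factor NRF1, beginning 22 bases before the start.
Ndn promoter: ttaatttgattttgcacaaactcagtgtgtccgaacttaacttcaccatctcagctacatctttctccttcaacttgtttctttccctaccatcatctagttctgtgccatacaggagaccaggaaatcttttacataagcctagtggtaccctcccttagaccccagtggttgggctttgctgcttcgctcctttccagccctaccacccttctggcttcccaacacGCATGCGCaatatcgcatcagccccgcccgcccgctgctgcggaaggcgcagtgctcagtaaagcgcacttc
This window holds 11 CpG dinucleotides, and 41.4% of all promoter windows hold as many or more. GCATGCGC, searched on both strands, is in 2.71% of the windows. Among the members with a window, which Cdkn1c lacked, it is in that of Ndn alone. TATAAA is not in these 300 bases.

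Ndn stood apart in listed level from its imprinted neighbours, which share its domain of chromosome 7. Peg12, a paternally expressed gene 112 kb away, had 1.48 RPKM in DKO 1 and 2.61 in DKO 2, against 2.21 in WT. Mkrn3, a paternally expressed gene of the makorin family 68 kb away, had 0.474, 0.574 and 0.750 RPKM in DKO 1, DKO 2 and WT. Magel2, a second MAGE family gene 27 kb away, had 0.105, 0 and 0.286 RPKM. Atp10a, a lipid transporter gene expressed maternally, had 0.0477, 0.0909 and 0.345 RPKM. Ube3a, a ubiquitin ligase gene expressed maternally in neurons, had 0.0640 RPKM in DKO 1 and 0 in DKO 2 and WT. Its transcripts have at most 50.7% of their bases to themselves, so these values may not show its level. Mkrn3, Magel2 and Atp10a were thus below WT in both DKO libraries, as were 31.0% of all tested transcripts, and Ube3a was not. All of these were under 1 RPKM and so outside the test, and the share among transcripts of such low level was not counted. Snrpn was listed at 0 in every library and has at most 10.9% of the bases of any transcript to itself.

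Plagl1 encodes a zinc-finger transcription factor, also called Zac1, that stops the cell cycle and is known to regulate a network of other imprinted genes in mouse. Its transcript NM_009538 (gene span chromosome 10, 13090832 to 13131694, plus strand) had 15.3 RPKM in DKO 1 and 9.15 in DKO 2, against 12.6 in WT. WT lay between the DKO libraries, whose mean was 12.2 ± 4.35 RPKM (SD, n = 2). The ratio to WT was 1.22 in DKO 1 (95% exact binomial interval 1.15 to 1.28) and 0.727 in DKO 2 (0.685 to 0.772), so DKO 1 was above WT and DKO 2 below it. The log2 difference was −0.08 (SE 0.72, limma adjusted p = 0.999). It was 0.26 in DKO 1 alone and −0.42 in DKO 2 alone.

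Peg3 encodes a large zinc-finger protein with roles in growth, maternal behaviour and cell death. Its transcript NM_008817 (gene span chromosome 7, 6703892 to 6730462, minus strand) had 1.004 RPKM in DKO 1 and 0.543 in DKO 2, against 0.716 in WT. As with Plagl1, WT lay between DKO 1 and DKO 2, and DKO 1 was the higher. The ratio to WT was 1.40 in DKO 1 (95% exact binomial interval 1.19 to 1.66) and 0.758 in DKO 2 (0.621 to 0.919). Its mean was under 1 RPKM, so it was fitted without the filter, with a log2 difference of 0.03 (SE 0.45, limma adjusted p = 0.984). Usp29, the paternally expressed neighbour that begins beside the Peg3 start, was listed at 0 in every library. Zim1, a maternally expressed zinc-finger gene 7 kb away, had 0.168 RPKM in DKO 1 and 0.159 in DKO 2, against 0.0704 in WT.

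Dlk1 encodes a membrane protein of the Delta and Notch family that holds precursor cells, such as those of fat, undifferentiated. Mest encodes a membrane hydrolase-like protein of embryonic mesoderm. All 4 Dlk1 and 3 Mest transcripts were listed at 0 in every library. The Mest transcripts have at most 4.53% of their bases to themselves. Of those of Dlk1, NM_001190705 has the most, 64.2%, and it too was at 0. No level, order or difference can be given for either gene.

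Across the members that could be read, the order of levels in WT was Ndn, Plagl1, Peg3 and then Phlda2 at 0. In both DKO libraries Phlda2 stood above Peg3, at 4.64 against 1.004 RPKM in DKO 1 and 2.14 against 0.543 RPKM in DKO 2. The ranges of Ndn (43.4 to 56.9 RPKM) and Plagl1 (9.15 to 15.3 RPKM) did not overlap. Grouped by parental expression, the 1 maternally expressed member tested was Phlda2, which passed the filter through its DKO values, and the 2 paternally expressed ones had DKO libraries on either side of WT. Over all tested transcripts 32.1% were above WT in both DKO libraries, 31.0% below and 36.4% on either side. The median log2 difference of the 3 tested members was 0.18, that of Ndn, beside −0.01 over all tested transcripts.

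**Figure D4:**
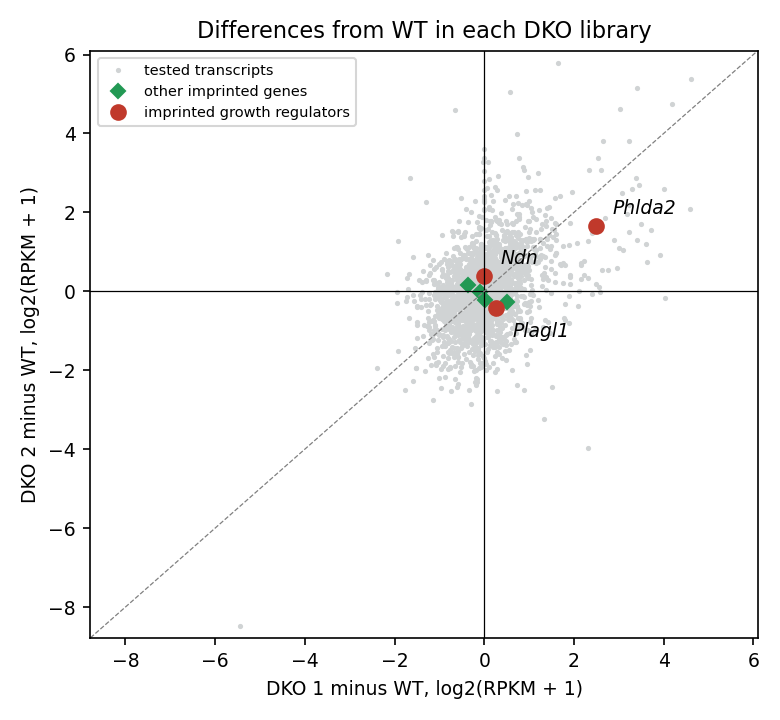
Difference from WT on the log2(RPKM + 1) scale in DKO 1 (horizontal) and DKO 2 (vertical) for the 2066 tested transcripts (grey), the other imprinted genes tested (diamonds) and the growth regulators tested (large circles). The dashed line marks equal differences. Phlda2 lies at 2.50 and 1.65, whereas Ndn, Plagl1 and the 4 other imprinted genes lie near the origin.

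The study's title concerns action independent of let-7, so the members' transcripts were searched for CTACCTC, the letters that pair with the let-7 seed (bases 2 to 8, in capitals in the miRNA and as the match in the transcripts). The match occurred in 2 of the 8 genes, in the 3' UTR of Peg3 (chr7:6706872-6706901, minus strand) and in the coding sequence of Plagl1 (chr10:13128213-13128242, plus strand), shown with their flanks on GRCm38.
mmu-let-7a-5p: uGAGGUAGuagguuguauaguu
Peg3 site: tgttctgtcccCTACCTCttagatagtcct
Plagl1 site: taatcctgttcCTACCTCatatgccccatt
Of 2049 tested transcripts with a gene model, 18.0% hold the match anywhere, a share per transcript that is not in the same unit as the count of genes. Peg3 and Plagl1 each had DKO 1 above WT and DKO 2 below it, and Phlda2 and Ndn hold no match. A match is a description of letters, and binding was not measured.

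Of 63 other imprinted genes listed, 40 had a transcript and 4 were tested, where 2051 of all 10761 named genes were tested. At 0 in every library were 18 of the 40, beside 68% of all transcripts, a share not in the same unit. Of these 18 genes, 11 share bases in every transcript, so their 0 was not read as absence. Among the 22 genes with a transcript whose bases are all its own, 7 were at 0 throughout. Of the 4 tested genes 0 passed limma, with 0 at an unadjusted p under 0.05. The only one below WT in both DKO libraries was Dhcr7, and the median log2 difference of the 4 was −0.08. Igf2r, the receptor that clears IGF2 and a maternally expressed gene, had 4.49 RPKM in DKO 1 and 2.17 in DKO 2, against 2.84 in WT. Impact, a paternally expressed regulator of translation, had 3.40, 2.71 and 3.33 RPKM in DKO 1, DKO 2 and WT. Igf2r, Impact and Peg12 were named after their values were seen, to complete the 4. The ligand gene Igf2 was listed at 0 throughout, and its transcripts overlap.

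Genes that act with the members were read from fixed lists, and 0 passed limma in any of them, with 0 at an unadjusted p under 0.05. In the insulin and IGF list, the pathway that Grb10 dampens, 4 of 14 genes were tested, with 2 above WT in both DKO libraries and 1 below, and the median log2 difference was 0.30. Grb2, an adaptor linking growth factor receptors to Ras, had 2.76 RPKM in DKO 1 and 3.65 in DKO 2, against 1.11 in WT (log2 difference 0.99, SE 0.68). Irs1, a docking protein of the insulin receptor, had 1.25, 2.39 and 0.975 RPKM in DKO 1, DKO 2 and WT. Igf1r, the receptor for IGF1, had 1.37, 0.498 and 1.75 RPKM. Grb2 and Irs1 were thus higher in both DKO libraries and Igf1r lower, and none of these differences passed limma. For Igf2r, the other receptor gene tested, the DKO libraries lay on either side of WT, at 4.49, 2.17 and 2.84 RPKM.

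For Peg3, known to bind the ubiquitin ligase Siah1, 3 of 5 genes of the Siah and PLAG list were tested. Siah1a had 10.8 RPKM in DKO 1 and 16.9 in DKO 2, against 6.77 in WT (log2 difference 0.90, SE 0.70). Siah1b had 3.54, 4.98 and 1.37 RPKM in DKO 1, DKO 2 and WT (log2 difference 1.14, SE 0.66). These near-identical copies may share reads, so the values of each are uncertain. Siah2, the other gene tested and named after its values were seen, had 1.04, 3.06 and 1.40 RPKM, on either side of WT. The list's median of 0.90, beside −0.01 over all tested transcripts, is the value of Siah1a, and the limma adjusted p of each gene was 0.999.

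Of the cyclins and cyclin-dependent kinases that p57 inhibits, 7 of 13 were tested, with 2 above WT in both DKO libraries, 3 below and a median log2 difference of −0.11. Cdk4, a G1 kinase, had 169 RPKM in DKO 1 and 222 in DKO 2, against 121 in WT. Cdk1, the mitotic kinase, had 66.4, 60.96 and 46.9 RPKM in DKO 1, DKO 2 and WT. Ccna2 had 16.7, 15.3 and 18.0 RPKM and Ccnd1 had 12.5, 14.1 and 14.1 RPKM in that order, both cyclin genes. The relatives of Phlda2 lay on either side of WT: Phlda1 had 22.2, 12.6 and 18.6 RPKM and Phlda3 had 11.2, 3.77 and 6.86 RPKM in DKO 1, DKO 2 and WT. Neither was listed at 0 in WT as Phlda2 was. Phlda1, Phlda3, E2f5 and Trim28 were named after their values were seen, as the tested genes of their lists.

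Of the Notch list that goes with Dlk1, 3 of 9 genes were tested and Notch2, a receptor, was the 1 above WT in both DKO libraries, at 1.59 RPKM in DKO 1 and 1.34 in DKO 2, against 1.04 in WT. The list's median was −0.02. For the E2F and p53 list of Ndn 1 of 8 genes was tested, E2f5, and for the genes that maintain imprints 1 of 14, Trim28, a co-repressor that protects methylation marks after fertilization. Trim28 had 10.8 RPKM in DKO 1 and 19.1 in DKO 2, against 15.5 in WT. E2f5 had 15.1, 10.7 and 11.2 RPKM in the same order. Both had DKO libraries on either side of WT, and none of the MAGE family list was tested.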

How the data were processed

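RNA from whole lung had been made into 2 DKO libraries and 1 WT library with the SMARTer Ultra Low Input kit, per the labels' protocols. The authors deposited RPKM per RefSeq transcript, 1 column per library. The submitters' processing notes name cutadapt, TopHat2, HTSeq, edgeR and mm10, without versions, and for the counting mode, strand setting and transcript lengths the sources used here give nothing. The table ends at NM_015816, and later identifiers were not analysed here. RefSeq (GRCm38.p6) named 16151 transcripts and GENCODE M21 a further 77.

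Values were tested as log2(RPKM + 1) with limma 3.58.1 in R 4.3.3 (two-sided, variance trend) for the 2066 transcripts averaging 1 RPKM or more over the libraries. The fit had 1 residual degree of freedom, from the DKO libraries, plus a prior of 11.2, and assumed that the lone WT library varies like them. The procedure was tested on simulated data. With 1 WT library even a large difference could fail: the immune marker S100a8, at a log2 difference of 4.46, did not pass. A gene that did not pass was therefore not read as unchanged. The worth of 1 read, found from low values of RPKM times transcript length, was 0.0326, 0.0292 and 0.0205 RPKM for a transcript of 1 kb in DKO 1, DKO 2 and WT, which makes WT the deepest library. Low values came within 0.05 of a whole number of reads in 46.6%, 44.6% and 47.1% of cases, where chance gives 10%, so reads are approximate. Ratio intervals at the 95% level are exact (SciPy 1.17.1), with read numbers rounded. Exon overlap came from GENCODE models, between transcripts of this table and regardless of strand.

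Members and lists were chosen with earlier results of these data known. The naming rule takes all members, up to 8 other imprinted genes and up to 4 genes of each further list whose DKO libraries both lay above or both below WT, and the 3 tested genes nearest to a member past the 2-fold rule. Promoter motifs were chosen after the sequences were read. Alternatives were other pseudocounts, filters, scalings, moderation, sums per gene and leaving out a DKO library.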

Additional observations from a re-analysis of the deposited data

How the results depend on the processing

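Limma called no member under any alternative fitted, which with 1 WT library does not show that levels were equal. It called 2 transcripts over the whole table, but 13 with a pseudocount of 0.1, 1 with 5, 10 with a filter at 5 RPKM, 16 with median scaling, and 0 with no filter, quantile normalization or TPM, where 260, 45 and 38 had an unadjusted p under 0.05. Phlda2 met the 2-fold rule except with a pseudocount of 5 or a filter at 5 RPKM, which removes it (0 members each). Over all transcripts the rule took 97, against 166 and 34 with pseudocounts of 0.1 and 5, 50 with the filter at 5 RPKM, 275 at 1.5-fold, and 280 to 555 with a DKO library left out. Of these 97, 66 were higher and 31 lower, and with TPM 71 were higher and 67 lower.

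The median log2 difference of the members, 0.18, was 0.023 without a filter, 0.053 with the filter at 5 RPKM, 0.095 with median scaling, 0.099 with quantile normalization, −0.037 with TPM, and 0.26 to 0.38 with a DKO library left out. That of the maternally expressed member, 2.07, rests on Phlda2 and its 0 in WT, and was 5.03 and 0.73 with pseudocounts of 0.1 and 5, 3.05 with TPM, 0.012 without a filter, where Cdkn1c and Grb10 enter, and 1.65 to 2.50 with a DKO library left out. That of the paternally expressed members, 0.053, was −0.17 with TPM. That of the other imprinted genes, −0.08, was 0.045 without a filter, −0.14 with median scaling and −0.28 with TPM. TPM moved the median of all transcripts to −0.22, and relative to it Ndn, at −0.037, was higher. A scaling to TPM without haemoglobin genes was chosen after seeing the data. It gave a members' median of 0.11, beside −0.09 over all tested transcripts. Phlda2 was at 3.24 and Plagl1 at −0.16, with Phlda2 still past the 2-fold rule. With a DKO library left out, the sign turned for Peg3, which ran from −0.15 (without DKO 1) to 0.22, for Plagl1, from −0.42 to 0.26 (without DKO 2), and for Ndn, from −0.0069 (without DKO 2) to 0.38. The cause of these moves was not tested beyond what is named. No paired analysis was possible because WT has 1 library. Depth limits Grb10, at no more than about 32 reads in a library, and Cdkn1c, at about 1.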
